A study of Mus musculus with 24 samples.

Results

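The cortical glutamatergic neuron genes *Slc17a7*, *Neurod2*, *Neurod6*, *Tbr1*, *Emx1*, *Tfap2d* and *Fezf2* were followed through 12 RNA-Seq libraries of the mouse nucleus accumbens (NAc) as a gauge of cortical RNA in the tissue punches. They were looked up by Ensembl identifier and are 7 of the 38293 genes in the mRNA count table. The set was chosen by its measured levels in these same libraries, so the differences of the 7 genes between groups are given as descriptions with standard errors and without a test. All 7 passed the filter on low counts (over 5 reads in 80% or more of any group's libraries), which left 18593 genes. *Neurod6*, *Emx1* and *Tfap2d* passed only through groups other than unstressed males.

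The libraries came from C57BL/6J mice, 9 weeks old per the labels, in 4 groups of 3 libraries. These were unstressed males (NSM), males after subchronic variable stress (SCVS, a daily alternation of foot shock, tail suspension and restraint; SM), unstressed females (NSF) and females after SCVS (SF). Females were in estrus or proestrus. A library pools 10 punches of 5 mice, and the small RNA fraction of the same pools was sequenced in 12 further libraries. The labels number the libraries within a group, and a library is named here by its group and number, such as NSF2. A level is given in CPM, the TMM-scaled count relative to library size. Because each library is bulk tissue, more cortical cells and more RNA per cortical cell cannot be told apart.

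Glutamatergic neurons load synaptic vesicles with glutamate through vesicular transporters. *Slc17a7* encodes VGLUT1, the transporter of most cortical and hippocampal projection neurons. The NAc receives glutamatergic axons from cortex, hippocampus, amygdala and thalamus, but its own projection neurons are GABAergic and express dopamine receptors and opioid peptides. The transcription factors of the set belong to the pallium, the embryonic source of cortical excitatory neurons. *Neurod2* and *Neurod6* are basic helix-loop-helix factors of postmitotic cortical neurons. *Tbr1* is a T-box factor of deep layers and early-born neurons, *Emx1* a homeobox factor of the dorsal pallium, *Tfap2d* an AP-2 factor, and *Fezf2* a zinc finger factor of subcerebral projection neurons.

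On NCBIM37, the build of the counts, *Slc17a7* (ENSMUSG00000070570) lies at chr7:52419291-52431508, *Neurod2* (ENSMUSG00000038255) at chr11:98186729-98190962 and *Neurod6* (ENSMUSG00000037984) at chr6:55627812-55631257. *Tbr1* (ENSMUSG00000035033) lies at chr2:61640987-61652171, *Emx1* (ENSMUSG00000033726) at chr6:85137432-85154456, *Tfap2d* (ENSMUSG00000042596) at chr1:19093103-19156427 and *Fezf2* (ENSMUSG00000021743) at chr14:13174406-13178379. All 7 are protein coding. Exons of *Tfap2d* overlap the antisense gene *Gm15825*, and the strand setting of the counting is not given in the sources used here, so its reads are less certain than those of the other 6 genes.

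The 250 bases before the transcription start are shown for the 4 genes that varied most between libraries and for *Fezf2*, which varied least. They are RefSeq sequences on GRCm38.p6, written 5′ to 3′ on the strand of the gene, from chr7:45163671-45163920 (plus), chr11:98329646-98329895 (minus), chr6:55681264-55681513 (minus), chr2:61804203-61804452 (plus) and chr14:12345866-12346115 (minus). Capitals mark the E-box CANNTG, the short palindromic element that basic helix-loop-helix factors bind.
Slc17a7: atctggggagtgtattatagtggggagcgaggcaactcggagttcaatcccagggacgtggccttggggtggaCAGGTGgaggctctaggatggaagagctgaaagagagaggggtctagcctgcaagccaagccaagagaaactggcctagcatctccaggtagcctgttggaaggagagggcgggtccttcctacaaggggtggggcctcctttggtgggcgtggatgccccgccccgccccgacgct
Neurod2: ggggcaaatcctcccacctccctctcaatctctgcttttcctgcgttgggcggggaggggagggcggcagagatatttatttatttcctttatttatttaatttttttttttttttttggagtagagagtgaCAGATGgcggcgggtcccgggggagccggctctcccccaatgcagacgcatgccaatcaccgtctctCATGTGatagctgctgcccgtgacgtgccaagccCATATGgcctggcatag
Neurod6: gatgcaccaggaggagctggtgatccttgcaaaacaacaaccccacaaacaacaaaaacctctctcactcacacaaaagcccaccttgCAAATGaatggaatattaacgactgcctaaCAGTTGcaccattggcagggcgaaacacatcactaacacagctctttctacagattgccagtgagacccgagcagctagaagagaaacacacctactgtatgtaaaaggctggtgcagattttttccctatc
Tbr1: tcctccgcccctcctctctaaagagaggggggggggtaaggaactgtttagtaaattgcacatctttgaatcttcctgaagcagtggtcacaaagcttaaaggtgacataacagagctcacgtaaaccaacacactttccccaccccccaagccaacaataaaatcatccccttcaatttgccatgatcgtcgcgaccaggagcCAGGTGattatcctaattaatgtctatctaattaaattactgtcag
Fezf2: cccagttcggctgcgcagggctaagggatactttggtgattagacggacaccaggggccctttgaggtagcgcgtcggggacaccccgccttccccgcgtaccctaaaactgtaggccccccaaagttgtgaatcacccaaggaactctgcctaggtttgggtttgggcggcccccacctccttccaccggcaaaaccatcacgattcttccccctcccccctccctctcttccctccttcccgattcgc

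The E-box was present on either strand in 5 of the 7 windows, in none of *Tfap2d* and *Fezf2*, and in 66.0% of 27025 mouse promoter windows of the same length. CAGATG, a form of the E-box bound by NeuroD factors, was found in *Neurod2* only and in 14.5% of all windows. TAATTA, a homeodomain core, occurred in *Tbr1* only, as 2 copies, and in 4.90% of all windows. GGTGTG, a T-box core, occurred in *Neurod6* and *Emx1* and in 16.2% of windows. CAGCTG, which is also an E-box, and GCCNNNGGC, an AP-2 element, were in none of the 7 windows. These are letter matches in short windows and are no measure of binding.

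The libraries carried markers of striatal projection neurons, and where in the striatum the punches lay was not tested. Summed over 16 genes of striatal projection neurons, such as the dopamine receptors *Drd1a* and *Drd2*, the level was 8655 to 9716 CPM in NSM, 9458 to 10553 in SM, 8562 to 10051 in NSF and 8976 to 10287 in SF. Between 41076780 and 60867747 reads were counted per mRNA library and between 5086554 and 13522287 per small RNA library. NSM1 stood apart in a choroid plexus marker, with 66.1 CPM of *Ttr* against 0.487 to 2.61 CPM in the other 11 libraries.

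*Slc17a7* is given first. NSM libraries 1 to 3 had 12.0, 4.02 and 16.4 CPM, and SM libraries had 39.5, 119 and 162 CPM. NSF libraries had 209, 16.4 and 297 CPM, and SF libraries had 37.0, 34.5 and 93.2 CPM. All stressed males lay above all unstressed males, while the unstressed females spanned nearly the whole range, with NSF2 at the level of NSM3 and the other two NSF libraries above every other library. The lowest library held 198 reads of the gene and the highest 13995, a 73.9-fold range in CPM. The exact Poisson 95% interval of the lowest level was 3.48 to 4.62 CPM and that of the highest 292 to 302 CPM, so that counting error was small against the spread. Such intervals cover counting error only.

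*Neurod2* and *Neurod6* had the same order of libraries as each other. *Neurod2* had 0.282, 0.163 and 0.809 CPM in NSM, 1.56, 4.21 and 6.05 in SM, 7.19, 0.874 and 14.6 in NSF, and 1.23, 1.19 and 3.06 in SF. *Neurod6* had 0.371, 0.102 and 0.670 CPM in NSM, 1.64, 5.93 and 6.80 in SM, 10.5, 0.775 and 12.4 in NSF, and 1.06, 0.880 and 2.80 in SF. In both genes the 3 NSM libraries were the lowest of all, NSF2 came next, and NSF1 and NSF3 were the highest. *Neurod6* ranged 122-fold between libraries, from 5 reads in NSM2 to 584 in NSF3, the widest range of the 7 genes.

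*Tbr1* had 1.68, 0.833 and 2.76 CPM in NSM, 4.43, 13.8 and 15.97 in SM, 22.7, 2.33 and 31.7 in NSF, and 5.15, 5.20 and 11.3 in SF. Its lowest library was again NSM2, at 41 reads, and its highest NSF3, at 1494 reads. *Emx1* had 0.0529, 0.0610 and 0.0986 CPM in NSM, 0.201, 0.298 and 0.886 in SM, 0.969, 0.247 and 1.57 in NSF, and 0.402, 0.293 and 0.808 in SF. These levels rested on 3 to 74 reads per library. SM2, among the 4 highest libraries in *Slc17a7*, *Neurod2*, *Neurod6* and *Tbr1*, lay in the middle of the range for *Emx1*.

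*Tfap2d* had 1 read in each NSM library, 14, 11 and 16 in SM, 18, 3 and 13 in NSF, and 11, 10 and 14 in SF. Summed over the libraries of a group and corrected for depth, it was 16.2 times higher in SM than in NSM. This ratio rests on 1 read in each NSM library and leaves out the spread between pools. *Tfap2d* was chosen on these levels and passed the filter only through groups other than NSM, so the ratio is given without a test. *Fezf2* stood apart from the other 6 genes. It had 1.50, 1.71 and 1.58 CPM in NSM, 1.36, 2.04 and 2.81 in SM, 3.04, 1.40 and 3.69 in NSF, and 1.52, 2.15 and 1.90 in SF, a range of 2.72-fold. Its lowest library was a stressed male, SM1, although NSF1 and NSF3 were the highest as in most of the set.

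**Figure D1:**
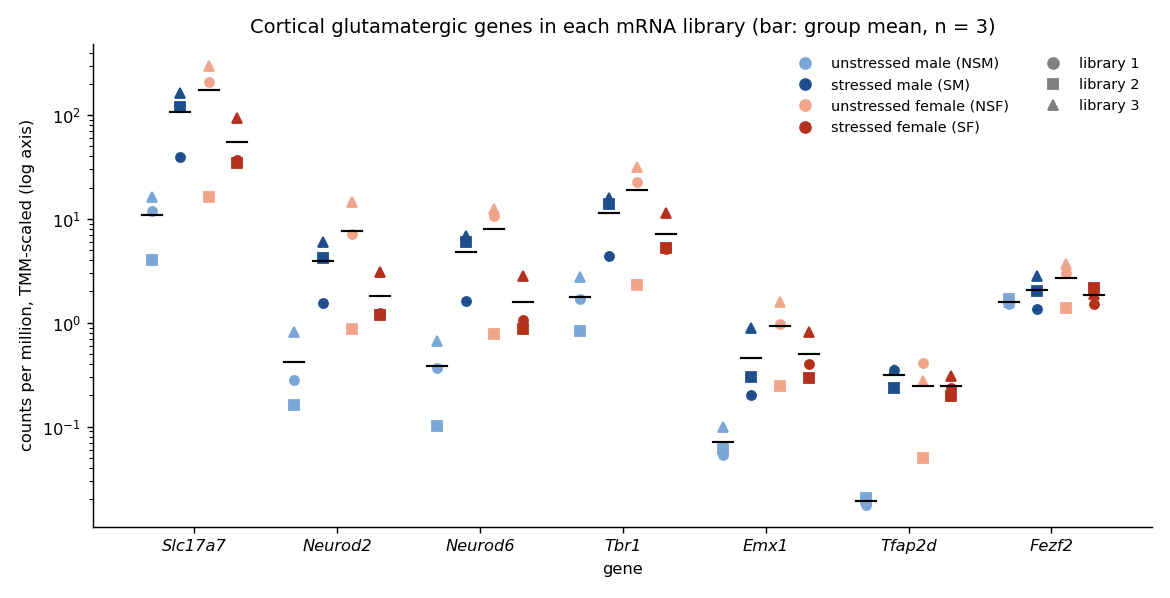
Levels of the 7 genes in the 12 mRNA libraries, in TMM-scaled CPM on a log axis. Points are libraries, colored by group and shaped by library number, and bars are group means (n = 3). In 6 genes the 3 NSM points lie below the 3 SM points, NSF2 lies far below NSF1 and NSF3, and in *Fezf2* all points lie between 1.36 and 3.69 CPM.

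Per kilobase of exon, which allows levels of different genes to be compared, the median over the 12 libraries was 13.0 CPM for *Slc17a7*, 0.943 for *Tbr1*, 0.783 for *Fezf2*, 0.625 for *Neurod6*, 0.444 for *Neurod2*, 0.135 for *Emx1* and 0.119 for *Tfap2d*. The step from *Slc17a7* to *Tbr1* was the widest between neighbours in this order. Their ranges over libraries still overlapped, at 1.37 to 101 for *Slc17a7* and 0.152 to 5.78 for *Tbr1*. The order changed with the group. In NSM the mean of *Fezf2* was 0.692 ± 0.0453 CPM per kilobase (SD, n = 3), above 0.320 ± 0.176 for *Tbr1* and 0.177 ± 0.132 for *Neurod6*, whereas in NSF *Tbr1* and *Neurod6* had 3.45 ± 2.75 and 3.67 ± 2.90.

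Between stressed and unstressed males the 7 genes were all higher after SCVS in the fitted means (voom-limma, which models log2 CPM with 1 mean per group). The log2 difference, SM minus NSM, was 3.29 (SE 1.10) for *Slc17a7*, 3.35 (SE 1.56) for *Neurod2*, 3.76 (SE 1.75) for *Neurod6*, 2.68 (SE 1.26) for *Tbr1* and 2.35 (SE 0.98) for *Emx1*. It was 3.46 (SE 0.66) for *Tfap2d* and 0.34 (SE 0.35) for *Fezf2*. All 3 SM libraries exceeded all 3 NSM libraries in 6 of the 7 genes, *Fezf2* being the exception. The same separation in that direction was found in 11.3% of the 18593 genes, and the 7 genes were picked on these levels, so nothing is read from their count. Other marker lists were also apart in these libraries. Of the 14 lists described further on, the summed level of 5 was higher in all SM than in all NSM libraries and that of 2 lower. Oligodendrocyte genes summed to 4600 to 5143 CPM in NSM and 5526 to 5557 in SM, microglia genes to 237 to 253 and 264 to 293, and pan-neuronal genes to 3907 to 4188 and 4393 to 4678. The 22 other cortical genes and the pallial transcription factors were the other two lists with higher sums. Subcortical glutamatergic genes, at 35.3 to 43.7 CPM in NSM and 28.7 to 34.4 in SM, and pallidal and septal genes, at 42.2 to 53.2 and 35.9 to 40.5, were lower. The part of these cells in the differences of the members was not tested.

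Between stressed and unstressed females the sign was the other way for most of the set, and the libraries overlapped in all 7 genes. Over all genes, the 3 SF libraries lay above all NSF libraries in 4.9% and below them in 6.41%. SF minus NSF was -1.03 (SE 0.87) for *Slc17a7*, -1.30 (SE 0.97) for *Neurod2*, -1.59 (SE 1.11) for *Neurod6*, -0.69 (SE 0.84) for *Tbr1*, -0.56 (SE 0.62) for *Emx1* and -0.38 (SE 0.32) for *Fezf2*. *Tfap2d* was at 0.50 (SE 0.54). The size of these values depended on single NSF libraries. Without NSF2 the *Slc17a7* difference was further from 0, at -2.35, and that of *Tfap2d* turned to -0.46. Without NSF1 the *Slc17a7* difference was nearer 0, at -0.49. Without NSF3 it was -0.22, that of *Tbr1* 0.06 and that of *Emx1* 0.00.

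The 2 unstressed groups differed by as much as the male groups. NSF minus NSM was 3.42 (SE 1.10) for *Slc17a7*, 3.55 (SE 1.53) for *Neurod2*, 3.73 (SE 1.73) for *Neurod6*, 2.75 (SE 1.23) for *Tbr1*, 3.13 (SE 0.92) for *Emx1*, 2.62 (SE 0.69) for *Tfap2d* and 0.59 (SE 0.33) for *Fezf2*. All NSF libraries exceeded all NSM libraries in *Neurod2*, *Neurod6*, *Emx1* and *Tfap2d*, 4 of the 7, against 11% of all genes. Nothing is read from this count, since the 7 genes were picked on these levels. *Neurod6*, *Emx1* and *Tfap2d* also passed the filter only through groups other than NSM. In *Slc17a7* and *Tbr1* NSF2 lay below NSM3. The summed level of 6 of the 14 marker lists was also higher in all NSF than in all NSM libraries, among them that of the oligodendrocyte genes, at 5249 to 5621 CPM, and that of the endothelial genes, at 145 to 153 CPM against 132 to 140. This comparison and that of stressed males share the NSM libraries, which were the lowest 3 in *Neurod2*, *Neurod6*, *Emx1* and *Tfap2d*.

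In stressed females against stressed males the difference, SF minus SM, was -0.90 (SE 0.87) for *Slc17a7*, -1.10 (SE 1.03) for *Neurod2*, -1.62 (SE 1.15) for *Neurod6*, -0.62 (SE 0.88) for *Tbr1*, 0.23 (SE 0.72) for *Emx1*, -0.35 (SE 0.51) for *Tfap2d* and -0.12 (SE 0.34) for *Fezf2*. The libraries of these groups overlapped in all 7 genes, and over all genes the SF libraries lay above all SM libraries in 12.8% and below them in 7.65%. The sign was not stable for *Emx1*, which was at -0.18 without SM1 and -0.17 without SF3, nor for *Fezf2*, which was at 0.12 without SM3 and 0.01 without SF1. The sex-by-stress interaction, which is the female stress difference minus the male one, was -4.32 (SE 1.40) for *Slc17a7*, -4.65 (SE 1.84) for *Neurod2*, -5.34 (SE 2.07) for *Neurod6*, -3.37 (SE 1.51) for *Tbr1*, -2.90 (SE 1.17) for *Emx1*, -2.96 (SE 0.86) for *Tfap2d* and -0.72 (SE 0.47) for *Fezf2*. In 5 members all SM libraries lay above the NSM mean and all SF libraries below the NSF mean, as in 3.88% of all genes. These means are in CPM and not on the log2 scale of the differences. Nothing is read from this count of members chosen on these levels.

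**Figure D2:**
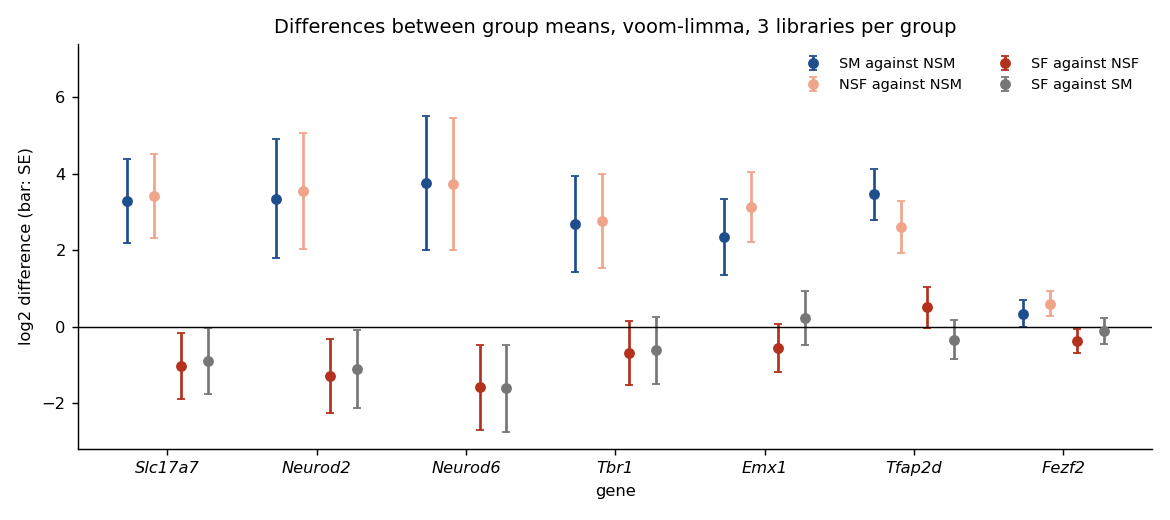
Log2 differences between group means of the 7 genes for 4 comparisons, with standard errors as bars. The differences of SM and NSF from NSM lie between 2.35 and 3.76 in 6 genes, and those of SF from NSF and SM lie between -1.62 and 0.50, with 12 of 14 below 0.

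The libraries of a group differed in these genes far more than in most genes. The SD of the log2 level within groups was 1.43 for *Slc17a7*, 1.36 for *Neurod2*, 1.49 for *Neurod6* and 1.26 for *Tbr1*, against a median of 0.118 over all 18593 genes. These 4 genes ranked 12, 18, 8 and 24 from the top. *Emx1* with 0.97, *Tfap2d* with 0.79 and *Fezf2* with 0.47 ranked 92, 196 and 1463. The ranks are descriptions only, since the genes were chosen on their levels in these same libraries. *Emx1* rested on 3 to 74 reads per library and *Tfap2d* on 1 to 18, so counting error is part of their spread. Without NSF2 the SD of *Slc17a7* fell to 0.92, and without any other library it stayed between 1.34 and 1.51.

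Within groups the members moved together. Per doubling of *Slc17a7*, with the group means in the model, *Neurod6* was higher by 0.99 (SE 0.06) on the log2 scale, *Neurod2* by 0.96 (SE 0.07) and *Tbr1* by 0.89 (SE 0.03), close to proportion. *Emx1* with 0.65 (SE 0.11), *Tfap2d* with 0.41 (SE 0.13) and *Fezf2* with 0.28 (SE 0.06) had shallower slopes. The correlations behind these slopes, over 12 libraries after subtracting group means, were 0.993 for *Neurod6*, 0.974 for *Neurod2*, 0.995 for *Tbr1*, 0.876 for *Emx1*, 0.748 for *Tfap2d* and 0.804 for *Fezf2*. All levels of a library share its pool and depth, and the genes were selected together, so these values describe the set. A straight line of the *Fezf2* level on the *Slc17a7* level, both in CPM, met the axis at 1.40 CPM, 68.1% of the mean *Fezf2* level. This share was 56.9% for *Tfap2d*, 16.5% for *Emx1* and 8.86% for *Tbr1*, and the line lay below 0 at the axis for *Neurod2* and *Neurod6*.

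The composition of the signal was not the same in all libraries. Per 1000 reads of *Slc17a7*, *Neurod2* gave between 23.6 and 53.4 reads, *Neurod6* between 25.3 and 50.4 and *Tbr1* between 98.3 and 207. *Neurod6* gave 41.5, 49.8 and 41.9 reads in SM and 50.4, 47.3 and 41.7 in NSF, but 28.6, 25.5 and 30.0 in SF. The NSM ratios, on 5 to 34 reads of *Neurod6*, were 31.0, 25.3 and 40.8. *Neurod2* was also lower in SF than in SM, at 33.2, 34.6 and 32.8 against 39.5, 35.4 and 37.2. *Tbr1* went the other way, at 139, 151 and 121 in SF against 112, 116 and 98.3 in SM, as did *Emx1*. The ratios of *Tfap2d* and *Fezf2* overlapped between these groups. Both genes of each ratio were chosen on these levels, so nothing is read from these differences.

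*Emx1* gave 2.50 reads per 1000 of *Slc17a7* in SM2, with an exact 95% counting interval of 1.37 to 4.20. It gave 5.29 in NSF3 (interval 4.15 to 6.64), 8.67 in SF3 (interval 6.10 to 12.0) and 15.1 in NSF2 (interval 8.42 to 25.0). *Slc30a3*, the vesicular zinc transporter of cortical neurons and no member of the set, was likewise low in SM2, at 19.1 reads per 1000 (interval 15.6 to 23.1), against 39.4 (interval 34.9 to 44.3) in SM3. *Tfap2d* gave 8.93 reads per 1000 in SM1 (interval 4.87 to 15.0) and 0.929 in NSF3 (interval 0.494 to 1.59), so that its highest ratio fell in a library of moderate *Slc17a7* level.

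**Figure D3:**
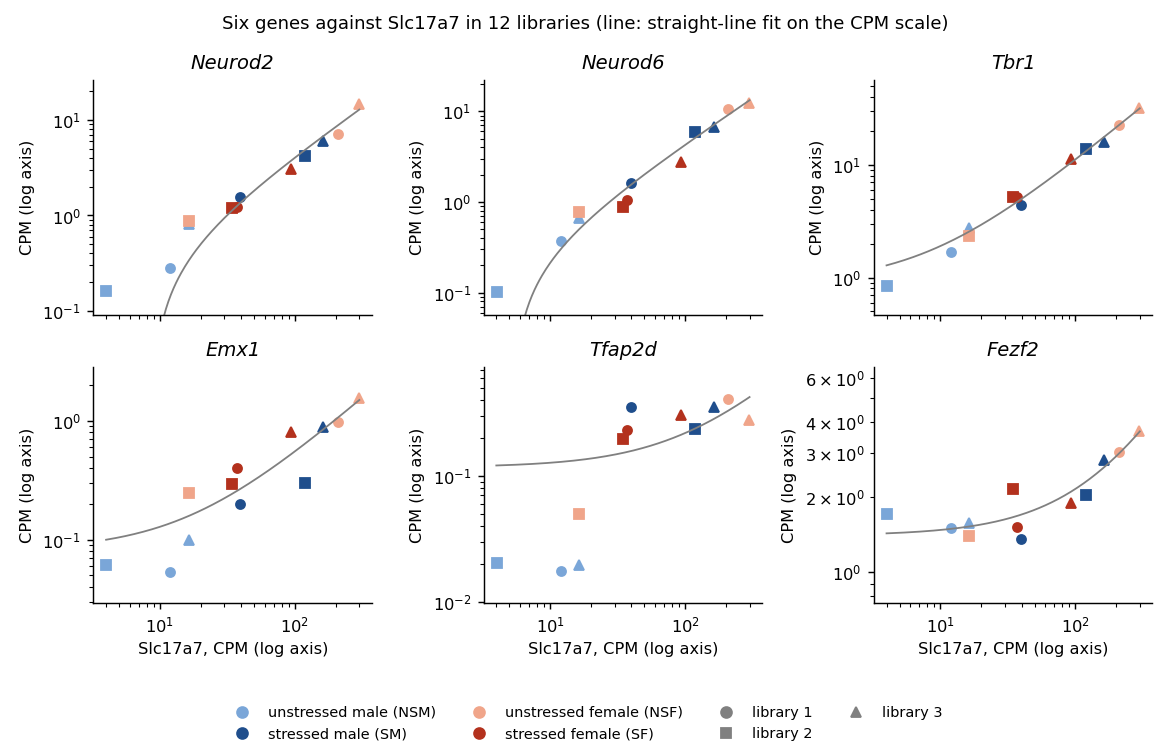
Levels of 6 genes against that of *Slc17a7* in the 12 libraries, both in CPM on log axes, with points colored by group, shaped by library number, and a straight-line fit on the CPM scale. *Neurod2*, *Neurod6* and *Tbr1* follow *Slc17a7* closely, *Fezf2* levels off near 1.40 CPM, and *Tfap2d* scatters most.

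Cortical genes outside the set were examined in a list of 22 markers of cortical layers and excitatory neurons. The list was chosen with earlier results of these data known. The study names *Cplx3* and *Ctgf* among its most upregulated genes in males, from these same libraries. Calls in the list are therefore no independent support for the differences of the members. In stressed against unstressed males 4 of 22 were called upregulated (unadjusted p under 0.05 and fold change of at least 1.3, the rule of the study), *Cplx3* by 2.35 (SE 0.89), *Ctgf* by 1.86, *Nptx1* by 0.65 and *Sv2b* by 0.43 on the log2 scale, and none downregulated. Of all genes 6.44% were called in this comparison in either direction. The median log2 difference of the list was 0.23 and that of all genes -0.01. After Benjamini-Hochberg adjustment in limma, *Sv2b* (adjusted p = 0.049) and *Mef2c* (adjusted p = 0.0361, log2 difference 0.24) passed. The count was 10 with edgeR's quasi-likelihood test and 10 with DESeq2, and it fell to 1 without SM2 or SM3 and to 2 without any of the NSM libraries, and reached 10 without SM1, NSF2 or NSF3.

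In stressed against unstressed females *Bhlhe22*, a cortical basic helix-loop-helix factor, was downregulated by 0.90 (adjusted p = 0.948, limma) and was the only call among the 22, against 1.73% of all genes. Without NSF2 12 of the 22 were called, without SF3 2, and without NSF1, NSF3 or SF2 none. Between unstressed females and males 8 of 22 were called, all higher in females, against 5.31% of all genes. They were *Bhlhe22*, *Cplx3*, *Ctgf*, *Neurod1*, *Nptx1*, *Nrn1*, *Ntsr1* and *Nxph4*, with log2 differences from 0.78 to 2.70, and none had an adjusted p under 0.05. Leaving out NSM1 or NSF3 lowered the count to 4, and NSM2, NSM3 or NSF1 to 5. Between stressed females and males *Rasgrf2* alone was called, at 0.47 higher in females, against 5.55% of all genes, and the count was 0 without SM2 or SF2 and 2 or 3 without SM1, SM3, SF1 or NSF2.

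The interaction was called for 9 of the 22, against 4.42% of all genes, with an adjusted p under 0.05 in none (limma). Among them *Cplx3* had -3.08, *Ctgf* -2.55, *Nxph4* -1.76, *Bhlhe22* -1.70, *Nptx1* -1.07 and *Sv2b* -0.63, the sign of the members, and *Rasgrf2* with 0.52 and *Bcl6* with 0.41 the other sign. *Cplx3*, a complexin of deep cortical layers, had 1.31, 0.670 and 0.809 CPM in NSM, 2.49, 5.65 and 6.73 in SM, 9.01, 1.25 and 7.39 in NSF, and 1.59, 1.92 and 4.74 in SF. Its NSF2 level lay inside the range of NSM, as that of *Slc17a7* did.

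Whether a gene followed *Slc17a7* within groups was tested for all genes in a model with the group means and the log2 level of *Slc17a7*. The slope had an adjusted p under 0.05 (limma) in 127 of 18592 genes, 0.683%, and was positive in all 127. The fit ran over the whole table, members included, and no test is read for the members. Of the 22 cortical genes 9 were among the 127, such as *Slc30a3* with a slope of 1.01, *Nrn1* with 0.89, *Neurod1* with 0.79, *Cplx3* with 0.66, *Ctgf* with 0.58, *Nxph4* with 0.45, *Bhlhe22* with 0.31 and *Nptx1* with 0.27. The other 13, among them *Cux2*, *Rorb*, *Tle4* and *Etv1*, are also named for cortical layers. *Tle4*, for example, ranged only from 142 to 176 CPM and *Cux2* from 17.7 to 29.8 CPM.

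The slopes depended on NSF2, the female control with the least *Slc17a7*. Without it 13 genes were called, all among the 127, and 1 of the 22 cortical genes. Without NSF3 61 were called, and without any other library between 98 and 150. All 127 slopes stayed positive in each of the 12 fits that left out 1 library, and 108 kept an unadjusted p under 0.05 in every fit.

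**Figure D4:**
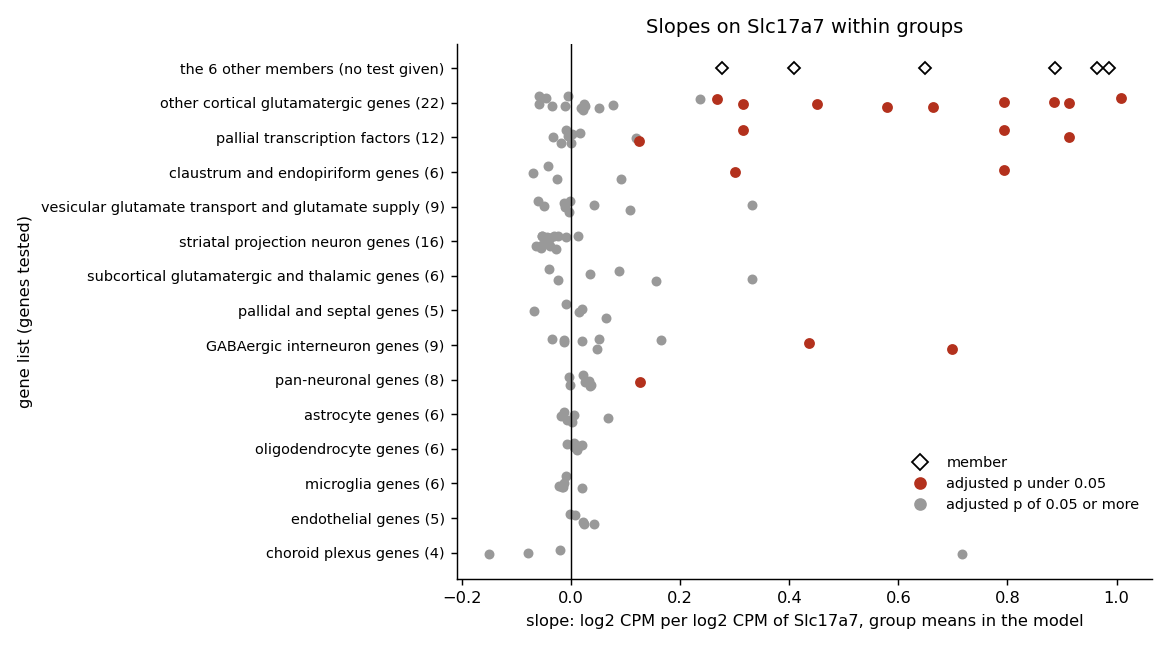
Slope of each gene on *Slc17a7* (log2 CPM per log2 CPM, group means in the model) for the 6 other members and for 14 marker lists, 1 line of points per list. Red points have an adjusted p under 0.05, gray points do not, and open diamonds are members, whose slopes are given without a test. Red points occur in the cortical, pallial, claustral, interneuron and pan-neuronal lists, and none occur among the 16 striatal genes.

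Marker lists of other cells were read in the same way. They too were chosen with earlier results known, and the study names *Nr4a2* among its most upregulated genes in males. Of 12 tested pallial transcription factors, 4 had a slope on *Slc17a7*, among them *Sox5* and, also in the cortical list, *Neurod1* and *Bhlhe22*. Of 6 claustrum and endopiriform genes, *Nr4a2* (slope 0.79) and *Ntng2* (slope 0.30) did. *Nr4a2* had 1.78, 1.02 and 2.41 CPM in NSM, 2.82, 10.1 and 12.8 in SM, 12.0, 2.01 and 14.2 in NSF, and 2.90, 2.95 and 8.78 in SF. Among 9 interneuron genes *Cck* (slope 0.70), which cortical excitatory neurons also express, and *Vip* (slope 0.44) did, and among 8 pan-neuronal genes *Stmn2* (slope 0.13).

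None of the 9 genes of vesicular glutamate transport and glutamate supply had such a slope. *Slc17a6*, the VGLUT2 transporter of thalamic and other subcortical neurons, had 2.47, 1.75 and 2.43 CPM in NSM, 2.57, 3.19 and 4.30 in SM, 4.26, 2.77 and 7.39 in NSF, and 3.47, 6.77 and 9.35 in SF. Its highest library was SF3, not NSF3, and its slope was 0.33 (adjusted p = 0.132, limma). The lists of 6 subcortical glutamatergic and thalamic, 6 astrocyte, 6 oligodendrocyte, 6 microglia, 5 endothelial and 4 tested choroid plexus genes held no gene with a slope that passed.

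Of the 16 striatal projection neuron genes none was called in any of the 5 comparisons, and none had a slope on *Slc17a7* with an adjusted p under 0.05. Their slopes were small and negative in 15 of 16, from -0.06 to 0.01, with a median of -0.04 against 0.06 in the cortical list and 0.00 over all genes. Before adjustment 8 of the 16 had a p under 0.05 (limma), against 1283 of 18592 genes. *Penk*, the enkephalin precursor, was among the 8, at -0.06 (SE 0.02). With *Slc17a7* in the model, *Drd1a*, *Pde10a* and *Pde1b* were called higher in SM than in NSM, each by 0.38 to 0.39, *Gpr6* higher in NSF than in NSM by 0.39 and *Pde10a* in the interaction at -0.43, none with an adjusted p under 0.05. Of the 5 pallidal and septal genes analysed, all 5 were called higher in stressed females than in stressed males against 5.55% of all genes, and 3 higher in unstressed females than in unstressed males, against 5.31%. *Gbx1* was also called higher in stressed than in unstressed females, by 0.47, and *Nkx2-1* in the interaction, at 0.42. None of these calls had an adjusted p under 0.05 (limma), and none of the 5 had a slope that passed. *Zic1*, a zinc finger factor, ranged from 23.9 to 31.2 CPM in NSM, 20.5 to 23.5 in SM, 32.9 to 49.6 in NSF and 28.1 to 59.3 in SF. NSF2 had 42.9 CPM of *Zic1*, within the range of the other NSF libraries, where its *Slc17a7* level was far below them. The part of tissue next to the NAc in the differences of the members was not tested.

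Genes closest to *Slc17a7* within groups were ranked by Pearson correlation over the 12 libraries after subtracting group means, among 13107 genes with a mean of at least 100 reads that were not members. The highest 10 were *Prss12*, *Gm11549*, *Cck*, *Nov*, *Scube1*, *Nr4a2*, *F730043M19Rik*, *Crtac1*, *Stx1a* and *3110035E14Rik*, with correlations from 0.991 down to 0.953. *Prss12*, the secreted protease neurotrypsin, had 1.04, 0.467 and 1.42 CPM in NSM, 1.66, 5.40 and 6.62 in SM, 10.3, 0.924 and 11.8 in NSF, and 1.04, 1.29 and 3.34 in SF. Its slope was 0.91 (SE 0.05, adjusted p = 8.43e-07, limma), whereas *Stx1a*, the synaptic syntaxin, had a slope of 0.20 (SE 0.02, adjusted p = 0.000217) on levels of 32.8 to 64.4 CPM.

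At the other end, the 10 genes with the lowest correlations included *Pcdhb21*, *C330019G07Rik*, *AI606181*, *Rcl1*, *Zdbf2*, ENSMUSG00000097789, *Sv2c*, *Acsf2* and *Rbms3*, from -0.931 to -0.879. Their slopes were small, between -0.10 and -0.04, and none had an adjusted p under 0.05 in limma. *Sv2c*, a synaptic vesicle protein abundant in basal ganglia, had 118 to 142 CPM across the 12 libraries.

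Adding the *Slc17a7* level to the model changed which genes were called in the comparisons themselves. Because *Slc17a7* also differed between the groups, an effect of group and an effect that goes with *Slc17a7* cannot be told apart where they coincide. In stressed against unstressed males 1198 genes were called without it and 1239 with it, of which 616 were shared. With an adjusted p under 0.05 there were 618 without it and 0 with it (limma, smallest adjusted p = 0.0541, 2861 genes at an unadjusted p under 0.05). The count with *Slc17a7* was 801 without NSM3. In stressed against unstressed females 322 and 261 were called, with 207 shared, and without NSF2 the 322 became 647.

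Between unstressed females and males 988 genes were called without it and 491 with it, with 274 shared, and 53 and 6 had an adjusted p under 0.05. These 6 were *Xist*, *Uty*, *Ddx3y*, *Kdm5d*, *Eif2s3y* and *Eif2s3x*, all on the sex chromosomes. The count with *Slc17a7* was sensitive to the model, and was 859 without NSM3. Between stressed females and males 1031 and 1107 were called, with 908 shared, and 27 and 20 had an adjusted p under 0.05, among them *Tsc22d3* at 0.59, *Cables1* at 0.48 and *Irs2* at 0.76 log2 units higher in females with *Slc17a7* in the model. For the interaction 822 genes were called without it and 565 with it, 264 of them shared, and the number at an adjusted p under 0.05 went from 5 to 0 (limma, 936 genes at an unadjusted p under 0.05 with it). The interaction count with *Slc17a7* was 919 without NSM1 and 1001 without NSF2, and the female count was 392 without SF1 and 482 without NSF2.

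**Figure D5:**
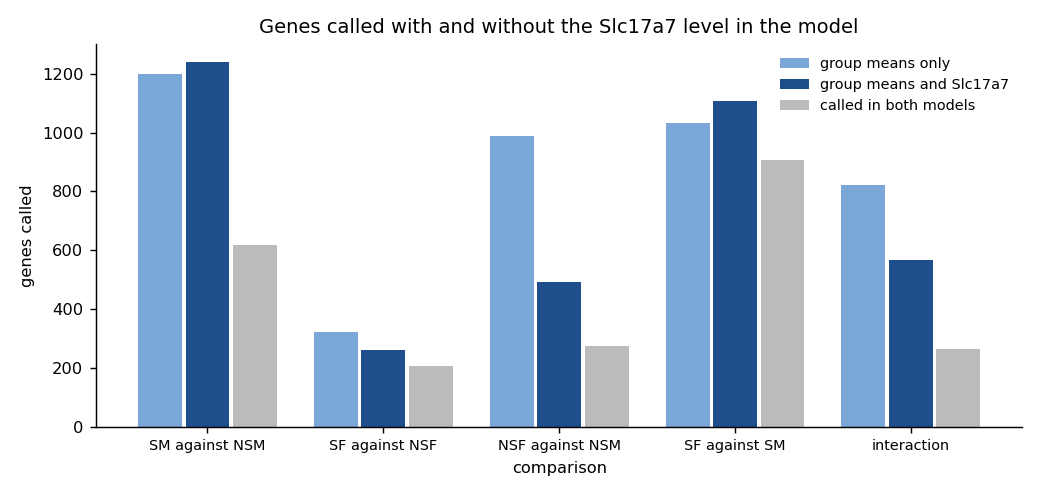
Number of genes called in each comparison with group means only, with the *Slc17a7* level added to the model, and in both models. In unstressed females against males the bars stand at 988 and 491, and in stressed against unstressed males 616 of 1198 genes are shared.

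The small RNA of the same pools did not follow *Slc17a7* to a degree that could be detected. No miR of 500 tested had a slope with an adjusted p under 0.05 (0%, limma, smallest adjusted p = 0.727). Before adjustment 31 had a p under 0.05. Without NSF2, 3 miRs passed. For the 282 miRs averaging 100 reads or more, the highest correlations within groups were those of mir-1843a at 0.761, mir-124-3 at 0.712, mir-455, mir-124-1 and mir-448, and the lowest those of let-7k at -0.795, mir-495 at -0.778, mir-539, let-7b and mir-5099. The slope of mir-124-3, a precursor of the neuronal miR-124, was 0.03 (SE 0.02), and its level ranged only from 21620 to 26538 CPM where *Slc17a7* ranged 73.9-fold. The slope of let-7k was -0.09 (SE 0.03).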

How the data were processed

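Punches of the NAc from C57BL/6J mice were pooled, 10 from 5 mice per library, and divided into a large and a small RNA fraction. The authors aligned mRNA reads with TopHat2 to NCBIM37 and counted them with HTSeq, and aligned trimmed small RNA reads with Bowtie to mm9. The strand setting and tool versions are not given in the sources used here. The deposited values are raw read counts per gene and per miR precursor, without normalization, and all columns were assigned to samples by their labels.

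Counts were filtered (over 5 reads in 80% or more of any group's libraries) and scaled by TMM in edgeR 4.0.16. They were then fitted with voom and limma 3.58.1 in R 4.3.3 with 1 mean per group over 12 libraries, the design of the study. Genes with p under 0.05 before adjustment and a 1.3-fold change or more were called. Slopes were fitted with the group means and the log2 CPM of *Slc17a7* and called at a Benjamini-Hochberg adjusted p under 0.05 over all features. Each library is a pool of mice. The limma p-values rest on a spread between pools that the 4 groups share for each gene and that is moderated over genes. They do not measure the spread within a single group.

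Genes were named from the GENCODE annotation of NCBIM37, with *Tfap2d* matched by a RefSeq synonym. Some genes of the lists and rankings are counted but not reported here by name. *Lhx8* of the pallidal and septal list was not analysed here. Promoters are RefSeq sequences on GRCm38.p6. The 7 genes, the 14 marker lists and the tests were chosen with earlier results of these data known. Named genes were all members, any gene of the lists, the 10 highest and 10 lowest correlations with *Slc17a7* (5 for miRs), and genes with an adjusted p under 0.05 when *Slc17a7* was in the model. Alternatives were library size scaling, DESeq2 1.42.0 size factors and Wald test, edgeR's quasi-likelihood test, other filters and call rules, *Neurod2* or ranks in place of *Slc17a7*, a replicate block and each library left out. Fits without the NSF libraries were added after the data were seen. The comparison and slope fits were tested on simulated data. Intervals are exact (Poisson or Clopper-Pearson, 95%), from scipy 1.17.1 in Python 3.11.15, and plots were made with matplotlib 3.10.9.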

Additional observations from a re-analysis of the deposited data

Results flagged for a closer look

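In 5 members every stressed male library lay above the mean CPM of unstressed males and every stressed female library below the mean CPM of unstressed females. This pattern was found in 3.88% of all 18593 genes. For *Emx1*, SF3 had 0.808 CPM and the NSF mean was 0.929 CPM. The female minus the male stress difference was -4.32 for *Slc17a7*, -4.65 for *Neurod2*, -5.34 for *Neurod6*, -3.37 for *Tbr1* and -2.90 for *Emx1* on the log2 scale. This difference was not tested, since the genes were chosen on these levels. For *Tbr1* and *Emx1* the sign in females rested on NSF3, without which the female stress difference was 0.06 and 0.00. NSF2, an unstressed library, lay below all 3 stressed female libraries in each of the 5 genes.

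Among the 22 cortical genes outside the set, the interaction passed an unadjusted p under 0.05 and the fold threshold in limma for 9 genes, among them *Cplx3* (-3.08), *Ctgf* (-2.55), *Nxph4* (-1.76), *Bhlhe22* (-1.70), *Nptx1* (-1.07), *Sv2b* (-0.63), *Rasgrf2* (0.52) and *Bcl6* (0.41). None of the 9 passed after adjustment over all genes.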

How the results depend on the processing

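No member difference or slope changed its sign by scaling, filter or block. In fits that left out 1 library, 12 of 420 member differences moved by more than the SD within groups, each without NSF2. That SD was wide, at 1.43 for *Slc17a7*, whose female stress difference ran from -0.22 to -2.35 without being counted as moved. Signs also changed in some of these fits, such as that of *Tbr1* in females without NSF3 and of *Emx1* between stressed sexes without SM1. Calls of single genes of the lists were lost in 76 of 479 other fits with all libraries and in 169 of 720 fits that left out 1. With each library left out, all genes called ranged from 831 to 1615 (stressed against unstressed males, 1198 with all libraries), 266 to 647 (females, 322), 705 to 1231 (unstressed sexes, 988), 752 to 1473 (stressed sexes, 1031) and 672 to 1103 (interaction, 822). With *Slc17a7* in the model the ranges were 801 to 1811, 198 to 482, 440 to 859, 760 to 1540 and 434 to 1001 in the same order. The 22 cortical genes gave 1 to 10, 0 to 12, 4 to 11, 0 to 3 and 6 to 12 calls, and slopes were called for 13 to 150 genes, 1 to 9 of the cortical genes and 0 to 3 miRs. By adjusted p in place of unadjusted p and fold, the calls were 618, 0, 53, 27 and 5 for all genes and 2, 0, 0, 0 and 0 for the cortical genes. The female comparison at 0 had 786 genes at an unadjusted p under 0.05.

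With at least 1 read in any library the counts became 865 in females, 1541 between unstressed sexes, 1603 between stressed sexes and 1350 for the interaction, and 808, 1283 and 1071 with *Slc17a7* in the model for females, unstressed sexes and interaction. With at least 10 reads in every library the female counts became 205, and 161 with *Slc17a7*. DESeq2 called 194 genes in females, edgeR and DESeq2 each called 10 cortical genes in males, and edgeR called 2 cortical genes in females. With library size scaling 2 cortical genes were called in males. Ranks or *Neurod2* in place of *Slc17a7* gave 126 and 129 genes with a slope. Without group means in the slope model 292 genes were called, and without the NSF libraries 9 genes, 1 cortical gene and 3 miRs.

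Same-numbered libraries of different groups did not resemble each other in every pair (correlations of their deviations from 0.00 to 0.32 in males and 0.08 to 0.11 in females, and 2 of 6 male and 6 of 6 female libraries correlated best with their own number), so the numbers are not taken as pairs for mRNA. In the small RNA of females all 3 pairs were above 0.1 (0.116, 0.191 and 0.307), in that of males not, and with the block 0 miRs had a slope, as without it. With the replicate block 10 cortical genes were called in males, 2 in females, and 77 genes had a slope. Between unstressed sexes the block gave 1000 genes without *Slc17a7* in the model and 933 with it, where the fits without the block gave 988 and 491, so that the lower count with *Slc17a7* was not seen under the block. The cause of these changes was not tested. Depth limits *Emx1* and *Tfap2d*, which had 5 reads or fewer in each NSM library.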
